A study of Homo sapiens with 3 samples.

Results

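Small Cajal body RNAs (scaRNAs) were measured on Affymetrix arrays in HEK293T, a widely used cell line of human embryonic kidney origin into which the SV40 large T antigen was introduced. The 10 scaRNA genes are SCARNA2, SCARNA3, SCARNA4, SCARNA5, SCARNA6, SCARNA7, SCARNA10, SCARNA17, SCARNA21 and SCARNA22. They are named members of the family with a probe set annotated to that gene alone, out of 22395 genes with such a probe set, and each was read by 1 probe set. They were selected on the log2 values of these same 3 arrays, so their differences between arrays are a description and no test was made on them. Which of the 3 contrasts weighed in that choice is not recorded, and all are treated as used. The cells had been transduced with lentivirus and selected in puromycin. They carried pCDF1-TRAF7 G536S, pCDF1-TRAF7 wildtype or the pCDF1 empty vector, with 1 array for each of the 3 groups. The labels do not say what drives the construct or whether a line is a clone. TRAF7 is an E3 ubiquitin ligase with WD40 repeats, and the mutant changes one residue of them. With no replicates, a difference between arrays also contains whatever differed between cultures, RNA extractions and hybridizations, and neither a standard error nor a p-value can be given.

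scaRNAs are short nuclear RNAs that guide the modification of spliceosomal small nuclear RNAs (snRNAs) in Cajal bodies. Those with H and ACA boxes pair with dyskerin and direct pseudouridylation, those with C and D boxes pair with fibrillarin and direct 2′-O-methylation, and a mixed kind carries both domains. Most are cut from introns of longer genes, so that a scaRNA and the messenger RNA around it come from one precursor but are processed and degraded separately.

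TRAF7 itself read 7.35 with G536S, 8.11 with wild type and 5.66 for the empty vector (log2 intensity), so both construct arrays carried more TRAF7 signal and the G536S array less of it than the wild-type array. The array medians were 1.01 with G536S, 1.02 with wild type and 1.04 for the empty vector, and the 75th percentiles were 1.86, 1.85 and 1.73 in the same order of groups, so the empty vector array was lower in its upper range. Each difference below is the log2 value on one array minus that on a second array. The differences are set beside the 11198 genes whose mean over the arrays was at or above the median gene (1.21), a filter that all 10 scaRNAs passed. The median of these genes was 0.10 for G536S minus empty vector, 0.08 for wild type minus empty vector and 0.01 for G536S minus wild type. Of the 7 measured genes listed as expressed in HEK293T cells, 5 passed the filter (VIM, LIN28B, NEFL, CDH2 and, barely, KRT18) and KRT8 and NEFM were below it, while none of 5 measured markers of blood, liver and heart passed.

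The G536S array had the highest value for 9 of the 10 scaRNAs, and the wild-type and empty vector arrays lay within 0.25 of each other for 8. The share of all genes with either trait was not computed, so these counts have no background beside them. Against the empty vector, 5 scaRNAs were at least 1.5-fold higher with G536S, where 6.07% of all genes passing the filter were, and 1 was at least 2-fold higher, where 0.929% of all genes were. None of the 10 was 1.5-fold lower, against 2.08% of all genes, and 9 were above 0, against 63.9%. Their median difference was 0.56, which is 0.46 above the median gene. With wild type, 0 of the 10 were at least 1.5-fold higher than the empty vector, against 5.42% of all genes, 0 were 2-fold higher, against 0.795%, and 1 was at least 1.5-fold lower, against 1.79%. The wild-type median was 0.01, which is -0.07 relative to the median gene. Between the constructs, 6 scaRNAs were at least 1.5-fold higher with G536S than with wild type, against 2.17% of all genes, and 2 were at least 2-fold higher, against 0.268%. None was 1.5-fold lower, against 1.81%, and 9 were above 0, against 51.4%. Their median there was 0.69. The rule that picked the scaRNAs used these arrays, so the counts describe the choice and nothing was read from their distance to the background.

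**Figure D1:**
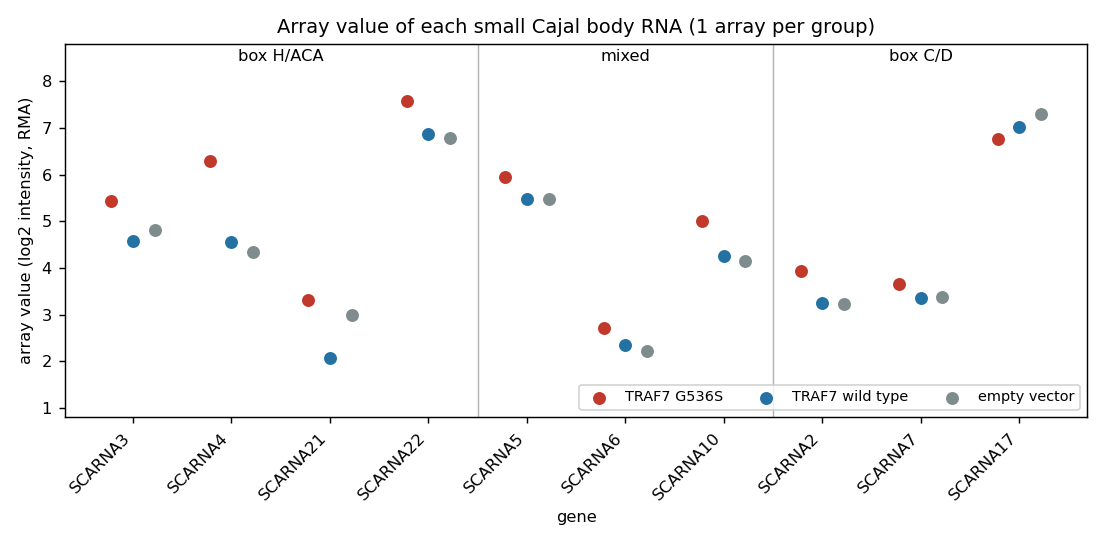
Array value (log2 intensity after RMA) of each of the 10 scaRNAs on the 1 array of each group, in red for TRAF7 G536S, blue for TRAF7 wild type and grey for the empty vector, arranged by kind of scaRNA. The G536S point is the highest for 9 genes, and for SCARNA17 it is the lowest (6.77); heights are not comparable between genes, because each has its own probes.

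The 4 H/ACA scaRNAs were all at least 1.5-fold higher with G536S than with wild type. SCARNA4, also named ACA26 and assigned to the U2 snRNA, read 6.29 with G536S, 4.56 with wild type and 4.34 for the empty vector. The G536S array stood apart, 3.87-fold above the empty vector (1.95) and 3.32-fold above wild type (1.73), and wild type lay 0.22 above the empty vector. Among the genes passing the filter SCARNA4 was number 8 from the top for G536S minus empty vector and number 3 for G536S minus wild type. SCARNA22, or ACA11, an RNA that is overproduced in myelomas with a translocation at its host gene NSD2, read 7.58 with G536S, 6.86 with wild type and 6.78 for the empty vector. It was 1.74-fold above the empty vector (0.80) and 1.64-fold above wild type (0.71) with G536S.

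SCARNA3 and SCARNA21 were the H/ACA members with the lowest value in the wild-type array. SCARNA3, or HBI-100, read 5.44 with G536S, 4.59 with wild type and 4.81 for the empty vector, a difference of 0.63 for G536S and -0.23 for wild type against the empty vector. SCARNA21, or ACA68, read 3.32 with G536S, 2.07 with wild type and 2.99 for the empty vector. Here the wild-type array stood apart from both others. SCARNA21 was 1.90-fold lower with wild type than with the empty vector (-0.93), number 25 from the bottom among genes passing the filter, and with G536S it was 0.33 above the empty vector. Its G536S minus wild type difference of 1.25 (2.39-fold, number 13 from the top) therefore comes mostly from a low wild-type value, while that of SCARNA4 comes mostly from a high G536S value.

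The 3 mixed scaRNAs shared one pattern, with the G536S array highest and the other arrays close together. SCARNA10, or U85, which guides both kinds of modification of the U5 snRNA, read 5.01 with G536S, 4.26 with wild type and 4.14 for the empty vector, which is 1.83-fold above the empty vector (0.87) and 1.69-fold above wild type (0.75) with the mutant. SCARNA5, or U87, read 5.95 with G536S, 5.47 with wild type and 5.48 for the empty vector. SCARNA6, or U88, read 2.71 with G536S, 2.35 with wild type and 2.23 for the empty vector. SCARNA5 and SCARNA6 lie in the same host gene and were 0.47 and 0.48 above the empty vector with G536S, both below 1.5-fold. With wild type they differed from the empty vector by -0.01 and 0.11.

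The 3 box C/D scaRNAs did not share a pattern. SCARNA2, named mgU2-25/61 for its sites in the U2 snRNA, read 3.93 with G536S, 3.26 with wild type and 3.23 for the empty vector (0.70 for G536S and 0.03 for wild type against the empty vector). SCARNA7, or U90, which guides methylation of the U1 snRNA, read 3.66 with G536S, 3.35 with wild type and 3.38 for the empty vector, the smallest G536S minus empty vector difference of the 9 that were above 0 (0.28). SCARNA17, or U91, was the 1 member that ran the other way. It read 6.77 with G536S, 7.03 with wild type and 7.31 for the empty vector, which is 1.45-fold lower with G536S (-0.54) and 1.21-fold lower with wild type (-0.27) than with the empty vector. Neither passed 1.5-fold, but the G536S difference did after quantile normalization (-0.70) and cyclic loess (-0.67).

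**Figure D2:**
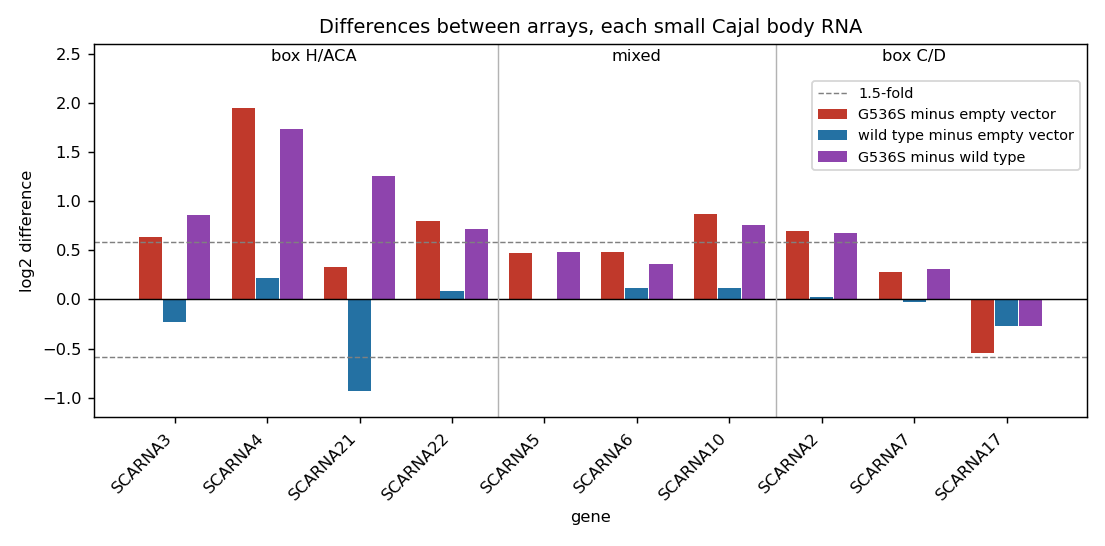
Log2 difference of each scaRNA for G536S minus empty vector (red), wild type minus empty vector (blue) and G536S minus wild type (purple), from 1 array per group, with dashed lines at 1.5-fold. SCARNA4 has the tallest G536S bars (1.95 and 1.73), SCARNA21 the lowest wild-type bar (-0.93), and SCARNA17 has all 3 bars below 0.

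The scaling of the arrays bore on the comparisons with the empty vector more than on the direct one. Quantile normalization moved the median of genes passing the filter by -0.13 for G536S minus empty vector and by -0.11 for wild type minus empty vector, and cyclic loess moved them by -0.10 and -0.09. The scaRNA differences of G536S minus empty vector moved by -0.17 to -0.14 under quantile normalization, and the number at least 1.5-fold higher became 3, with 9 of 10 still above 0. For G536S minus wild type the number at least 1.5-fold higher was 6 under every scaling tried (quantile normalization, cyclic loess and median centring). With wild type 5 of the 10 were above 0 relative to the empty vector (62.6% of all genes were). That split became 1 of 10 after quantile normalization, 3 of 10 after cyclic loess and 7 of 10 after median centring. Only SCARNA3, SCARNA4, SCARNA17 and SCARNA21 kept 1 sign under every scaling, and SCARNA4 fell to 0.10 after quantile normalization. Scaling the same arrays anew does not measure variation between cultures, so no direction is given for the small wild-type differences.

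The annotation holds 10 further scaRNA genes with a probe set of their own, 6 of which passed the filter. All 10 were above 0 for G536S minus empty vector, with a median of 0.48, beside 63.9% of genes passing the filter. All 10 were also above 0 for wild type minus empty vector, with a median of 0.29, beside 62.6%, so this direction was not particular to G536S. Because 4 of the 10 did not pass, the counts without the filter are given too. Of all 22395 genes, 10917 were above 0 with G536S and 11149 with wild type. SCARNA18, or U109, read 2.61 with G536S, 1.30 with wild type and 1.29 for the empty vector, so the G536S array alone was high, 2.49-fold above the empty vector. SCARNA1, or ACA35, read 2.30 with G536S, 1.66 with wild type and 1.38 for the empty vector. These profiles resemble that of SCARNA4 in which array is highest.

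Other family members differed with wild type as well. SCARNA9L, an X-linked copy of SCARNA9 that may share probe sequence with it, read 6.48 with G536S, 5.87 with wild type and 4.76 for the empty vector, so it was high in both construct arrays (1.71 and 1.11 above the empty vector). SCARNA27 read 3.93 with G536S, 4.49 with wild type and 3.81 for the empty vector, with the wild-type array the highest and G536S minus wild type at -0.56. SCARNA20 was 0.50 above the empty vector with G536S and 0.62 with wild type, and SCARNA8 0.27 and 0.31. In the 10 further genes the wild-type median was 0.29, against 0.01 in the first 10, and 7 of 10 were above 0 for G536S minus wild type. The other 4 genes, SCARNA11, SCARNA14, SCARNA15 and SCARNA23, lay below the filter level, near background, and were 0.24 to 0.57 above the empty vector with G536S. Another 3 probe sets that name a scaRNA together with other genes were not used.

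**Figure D3:**
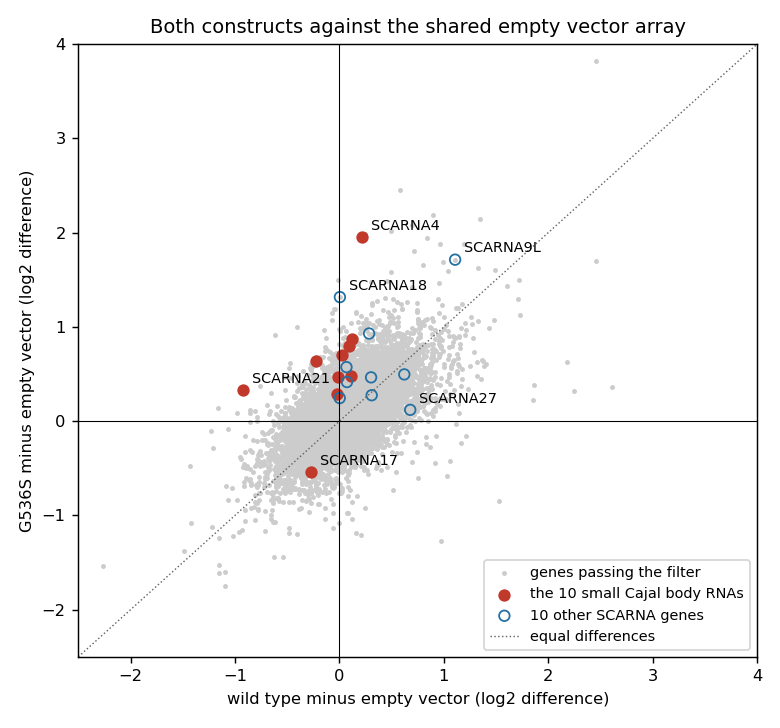
Log2 difference of G536S minus empty vector (vertical) against wild type minus empty vector (horizontal) for the 10 scaRNAs (filled red), the 10 other SCARNA genes (open blue) and all genes passing the filter (grey), 1 array per group. Both axes share the empty vector array, which alone spreads points along the dotted line of equal differences; 9 of the 10 red points lie above that line, SCARNA4 at 0.22 and 1.95.

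In the RefSeq gene table of GRCh38.p14, 9 of the 10 scaRNAs lie within a longer gene and SCARNA2 lies in none. The holding genes are KHDC4 for SCARNA4, COP1 for SCARNA3, CHD3 for SCARNA21, NSD2 for SCARNA22, NCAPD2 for SCARNA10, ATG16L1 for both SCARNA5 and SCARNA6, KPNA4 for SCARNA7 and the long noncoding SNHG22 for SCARNA17. The table gives no strand, so that both are read from the same strand was not checked. The annotated scaRNAs span 125 to 421 bases. Upstream windows from RefSeq (GRCh38.p14) are shown for 3 of them: that of KHDC4, which holds the scaRNA with the highest difference, that of ATG16L1, which holds 2 scaRNAs, and that of SNHG22, whose annotated start is also the start of SCARNA17. For the protein-coding KHDC4 (chr1:155934414-155934663, minus strand) and ATG16L1 (chr2:233251423-233251672, plus strand) they are the 250 bases before the start, with CCGGAA on either strand in capitals. For SNHG22 (chr18:49813773-49814072, plus strand) they are the 250 bases before the start, then in capitals the first 50 bases that it shares with the SCARNA17 interval.
KHDC4: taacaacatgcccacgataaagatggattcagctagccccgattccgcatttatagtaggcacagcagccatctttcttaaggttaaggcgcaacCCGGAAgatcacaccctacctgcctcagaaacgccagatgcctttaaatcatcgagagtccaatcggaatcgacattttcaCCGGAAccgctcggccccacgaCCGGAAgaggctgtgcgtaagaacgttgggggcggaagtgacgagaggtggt
ATG16L1: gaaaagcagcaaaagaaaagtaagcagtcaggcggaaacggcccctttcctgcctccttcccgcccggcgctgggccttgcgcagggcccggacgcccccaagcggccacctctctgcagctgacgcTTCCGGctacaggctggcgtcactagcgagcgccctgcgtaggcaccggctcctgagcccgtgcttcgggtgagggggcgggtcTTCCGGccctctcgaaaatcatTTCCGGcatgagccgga
SNHG22: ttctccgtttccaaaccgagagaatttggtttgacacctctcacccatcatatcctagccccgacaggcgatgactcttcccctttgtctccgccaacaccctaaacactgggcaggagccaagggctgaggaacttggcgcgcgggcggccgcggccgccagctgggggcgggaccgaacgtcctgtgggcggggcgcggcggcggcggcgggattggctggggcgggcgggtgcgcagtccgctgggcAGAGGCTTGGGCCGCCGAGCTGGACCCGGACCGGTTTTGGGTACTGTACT

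The letters CCGGAA, a sequence that ETS-family factors bind, were searched on both strands in the 250 bases before the start. They occurred in 2 of 7 holding genes with a window (KHDC4 and ATG16L1, 3 times in each), and in 14.8% of 27305 windows of that length. SNHG22 is among these 7 and KPNA4 is not, the reverse of the holding genes with a probe set. TATAAA, searched likewise, occurred in 1 of the 7 (KHDC4) and in 11.1% of all windows. A match is a description of the letters, not a binding site.

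The 7 holding genes with a probe set of their own were less than 1.5-fold apart in each of the 3 comparisons. Among all genes passing the filter, 6.07% were that much higher and 2.08% lower for G536S minus empty vector. The shares were 5.42% and 1.79% for wild type minus empty vector, and 2.17% and 1.81% for G536S minus wild type. The count of 0 is therefore near the background. COP1, at 0.575 between the constructs, was just below the 1.5-fold line (0.585). For G536S minus wild type the holding genes ran from -0.23 to 0.57 (median 0.07), and the scaRNA was above its holding gene in 8 of 8 pairs, by a median of 0.52 and a range of 0.16 to 1.96. In these pairs ATG16L1 counts once for SCARNA5 and once for SCARNA6. The scaRNAs were chosen on values of these arrays and the holding genes by position. The gap therefore also describes that choice, and it was not tested. In the further scaRNA genes whose holding gene had a probe set, the same gap ran from -0.03 (SCARNA8 in HAUS6) to 1.61 (SCARNA18 in TMEM167A). KHDC4, an RNA-binding protein gene, read 5.49 with G536S, 5.72 with wild type and 5.34 for the empty vector, so its lead was in the wild-type array while that of SCARNA4 was in the G536S array. CHD3, a chromatin remodeller, read 6.06 with G536S, 6.07 with wild type and 6.16 for the empty vector, a nearly flat profile around the dip of SCARNA21.

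COP1, a ubiquitin ligase gene, read 4.83 with G536S, 4.25 with wild type and 4.52 for the empty vector, and so had the order of arrays that SCARNA3 had. ATG16L1, an autophagy gene, was 0.43 above the empty vector with G536S, near the 0.47 and 0.48 of its scaRNAs, but it was also 0.37 above with wild type, where SCARNA5 and SCARNA6 were not. NSD2, a histone methyltransferase gene, was 0.20 above the empty vector with G536S, and NCAPD2, a condensin subunit gene, differed by -0.05, against 0.80 and 0.87 for SCARNA22 and SCARNA10. KPNA4, an importin gene, was 0.35 above the empty vector with G536S and exceeded SCARNA7. For wild type minus empty vector, 2 of 8 scaRNAs were above their holding gene, with a median of -0.19 for the gap.

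**Figure D4:**
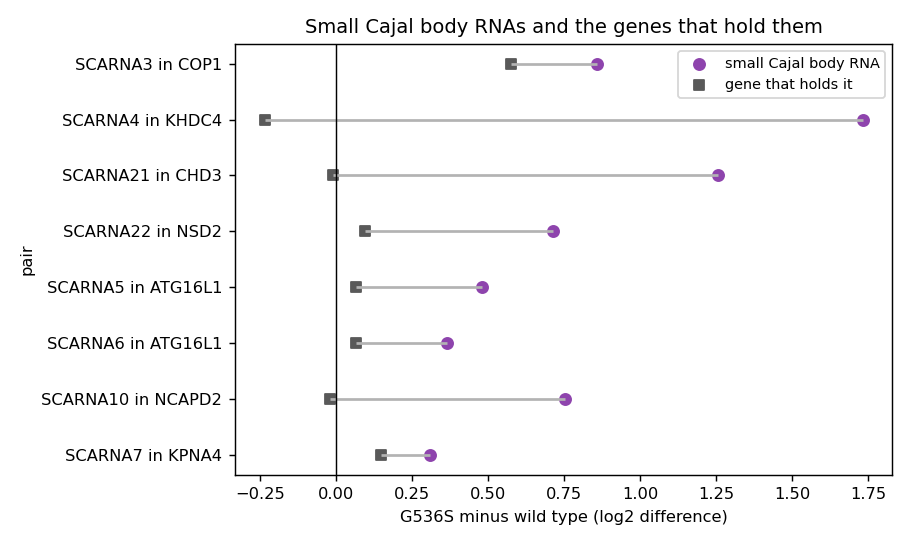
G536S minus wild type log2 difference of 8 scaRNAs (purple circles) and of the gene that holds each (grey squares), 1 array per group, joined by a line. Each circle lies right of its square, and the widest gap is SCARNA4 at 1.73 with KHDC4 at -0.23. The scaRNAs were chosen on values of these arrays and the holding genes by position, so the gaps also describe that choice.

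Other guide RNAs and snRNAs were set beside the scaRNAs. For G536S minus empty vector, box H/ACA snoRNAs (SNORA genes, which guide pseudouridylation of ribosomal RNA) had a median of 0.49 over 61 genes and 0.57 over the 53 that passed the filter, and 25 of those 53 (47.2%) were at least 1.5-fold higher. Box C/D snoRNAs (SNORD genes) had a median of 0.03 over 157 genes, most of them near background, and 0.63 over the 65 that passed, with 33 (50.8%) at least 1.5-fold higher. The share of the 10 scaRNAs, 50%, lies between these shares. For G536S minus wild type the medians were 0.20 over all 61 SNORA and 0.05 over all 157 SNORD genes. Over the genes passing the filter, whose mean includes the G536S array, they were 0.35 and 0.50, against 0.69 for the 10 scaRNAs. For wild type minus empty vector the medians of the genes passing the filter were 0.14 and 0.11, against 0.01. The scaRNAs were chosen on values of these arrays. The snoRNA classes were taken by symbol, but were listed with earlier results of these data known. No class is therefore said to differ from another, and the part of the snoRNA differences in the scaRNA values was not tested.

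Spliceosomal snRNAs are the RNAs that scaRNAs modify. Of 143 genes with an RNU or RNVU symbol, many of them pseudogene copies that can share probe sequence, 20 passed the filter. The symbol match is wider than the spliceosomal set. It takes in RNU105B and copies of U7 (RNU7-28P, RNU7-35P, RNU7-77P and RNU7-80P), which are not spliceosomal and stay in the medians and counts below. For G536S minus empty vector the median was -0.03 over all 143, with 64 above 0, and 0.26 over the 20, with 9 at least 1.5-fold higher, where 6.07% of all genes passing the filter were. For wild type minus empty vector it was -0.02 over the 143 and 0.04 over the 20. RNU4ATAC, RNU12, RNU6ATAC and RNU11 of the minor spliceosome were above the empty vector with G536S by 1.07, 0.88, 0.68 and 0.60, and with wild type differed from it by -0.07, 0.03, 0.05 and -0.24. In these 4 the G536S array was the highest, a trait whose share over all genes was not computed. They were named for their role after their values were seen, and the values do not single them out. RNU1-16P (2.18), RNU5F-1 (1.49), RNU5A-8P (1.18), RNU6-59P (0.91) and RNU5E-1 (0.71) were also at least 1.5-fold higher with G536S. With wild type they differed from the empty vector by 0.90, -0.01, 0.41, 0.31 and 0.17. Of the 20 genes, 1 was at least 1.5-fold lower with G536S (RNU7-77P, -0.61).

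**Figure D5:**
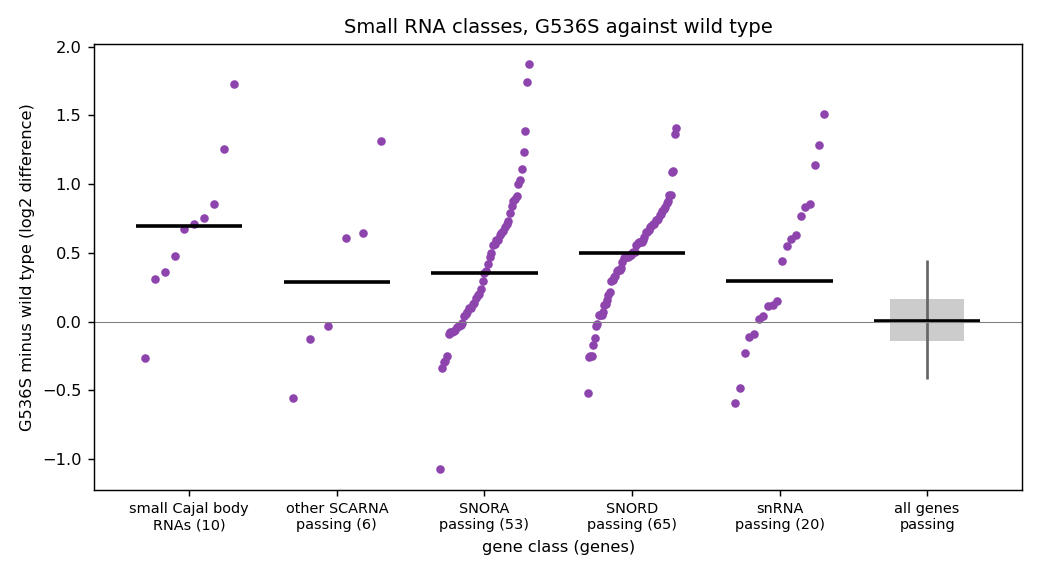
G536S minus wild type log2 difference of the 10 scaRNAs, the 6 other SCARNA genes, 53 SNORA, 65 SNORD and 20 RNU or RNVU genes that passed the filter. The last class is labelled snRNA and includes genes that are not spliceosomal. Points are sorted from left to right, and black lines are medians. All genes passing the filter are a box (25th to 75th percentile) with a thin line (5th to 95th percentile). The medians are 0.69, 0.29, 0.35, 0.50, 0.30 and 0.01 from left to right.

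The proteins that build and hold scaRNAs were read beside the all-gene shares for G536S minus empty vector, 6.07% at least 1.5-fold higher and 2.08% lower. Of 8 core proteins of guide RNA particles, 6 were measured. Dyskerin (DKC1) and NOP56 were not. Among those measured GAR1, a subunit of H/ACA particles, was the 1 at least 1.5-fold higher. GAR1 read 2.93 with G536S, 2.70 with wild type and 2.11 for the empty vector, so it was high in both construct arrays (0.82 and 0.59). The other measured H/ACA subunits NOP10 and NHP2 were 0.37 and 0.34 above the empty vector with G536S and 0.08 and 0.01 with wild type. In C/D particles the methyltransferase fibrillarin (FBL) was 0.07 and 0.06 above the empty vector, the scaffold NOP58 0.18 and 0.13, and SNU13, which binds C/D RNAs and the U4 snRNA, differed by 0.08 and -0.004, each for G536S and for wild type.

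Assembly factors had medians of 0.00 for G536S and -0.01 for wild type against the empty vector over 12 measured genes. NUFIP1, which brings C/D proteins together, was at least 1.5-fold higher in both (0.60 and 0.61). Of 21 Cajal body and SMN complex genes 20 were measured, with a median of 0.16 for G536S and 0.14 for wild type and 1 gene at least 1.5-fold higher in each. ELL, a transcription elongation factor found in a Cajal body complex that acts on small nuclear RNA genes, read 2.32 with G536S, 1.62 with wild type and 1.46 for the empty vector (0.85 and 0.16), the order of arrays seen for SCARNA2 and SCARNA10. GEMIN8, of the SMN complex, was 0.88 above the empty vector with wild type and 0.34 with G536S. COIL, the Cajal body scaffold coilin, was 0.51 and 0.17 above the empty vector with G536S and wild type, and WRAP53, which brings scaRNAs to Cajal bodies, differed by -0.19 and -0.18.

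Genes of small RNA transcription, 3′ end processing and decay had medians of 0.10 for G536S and 0.09 for wild type over 27 measured genes, beside 0.10 and 0.08 for the median gene. INTS5, a subunit of the Integrator complex that cuts the 3′ ends of snRNA precursors, was the 1 member at least 1.5-fold apart from the empty vector (-0.66 with G536S and -0.73 with wild type). For G536S minus wild type, 0 of the 27 were 1.5-fold apart, where 2.17% of all genes were that much higher and 1.81% lower, so the count is near the background. The exonuclease gene XRN2, the highest of the 27 with G536S, was 0.54 above the empty vector with G536S and 0.27 with wild type. PARN, which trims the tails of guide RNAs, was 0.46 and 0.32 above it. XRN2 and PARN were named for their role after their values were seen, and the median of the list lay near that of all genes.

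The 5 protein-coding genes whose pair of differences from the empty vector lay nearest to the scaRNA medians were TDG, RNASEH2A, MRPL28, IRF8 and CRYZL1, at distances of 0.01 to 0.03 on the log2 scale over the 3 arrays. TDG, a DNA glycosylase gene, read 5.23 with G536S, 4.70 with wild type and 4.68 for the empty vector. MRPL28, IRF8 and CRYZL1 had low values, from 1.51 (IRF8, empty vector) to 2.53 (CRYZL1, G536S), not far above the filter level of 1.21. Of 10083 protein-coding genes passing the filter, 56 lay within 0.1 of the scaRNA medians.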

How the data were processed

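The authors deposited 1 log2 intensity for each probe set and array, computed with RMA (background correction, normalization, probe summary), per the submitters' processing notes; version, build and log base: not given in the sources used here. Base 2 follows from the highest value, 12.57, which exceeds the natural log of a 16-bit maximum (11.09). The platform annotation of the 53617 probe sets gives 1 gene to 23871, several to 1842 and none to 27904, and symbols were updated through the Entrez ID in RefSeq's GRCh38.p14 table (22572 matched). The probe set with the highest mean stood for a gene. With 1 array per group no test was made; log2 differences were counted at 1.5-fold and 2-fold. The genes, lists and naming rule (the family, holding genes, core proteins, list members 1.5-fold apart, and the 5 nearest protein-coding genes) were chosen with earlier results of these data known; XRN2, PARN, COIL, WRAP53 and the minor spliceosome RNAs were named for their role after their values were seen. Alternatives were the mean of probe sets, quantile normalization, median centring, cyclic loess, a floor at the 25th percentile and 4 other gene backgrounds. The counting at 2-fold was run on simulated data with a smaller spread between arrays than here. That run checks the code and not the counts reported. Python 3.11.15, pandas 2.3.3, numpy 2.4.6, matplotlib 3.10.9, R 4.3.3 and limma 3.58.1 were used. Precision is limited by the array number.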

Additional observations from a re-analysis of the deposited data

Results flagged for a closer look

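SCARNA21 and SCARNA3 ran in opposite directions with the 2 constructs against the empty vector and were at least 1.5-fold apart between them. SCARNA21 was 0.33 above the empty vector with G536S and differed by -0.93 with wild type, so G536S minus wild type was 1.25. SCARNA3 was 0.63 above with G536S and differed by -0.23 with wild type (0.86 between the constructs). NEFL, a neurofilament gene used as a marker of HEK293T cells, ran the other way, at -0.39 with G536S and 0.25 with wild type (-0.64 between the constructs). With 1 array per group these differences were not tested.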

How the results depend on the processing

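The median scaRNA difference for G536S minus empty vector was 0.56, and 0.41 to 0.59 over the alternatives. For G536S minus wild type it was 0.69, and 0.66 to 0.70. For wild type minus empty vector it was 0.01, became -0.13 with quantile normalization and -0.11 with cyclic loess. The number of scaRNAs at least 1.5-fold higher with G536S than with the empty vector, 5, became 3 after quantile normalization and 3 after cyclic loess; both settings also lowered the median of all genes there. The share of all genes at least 1.5-fold higher in that comparison, 6.07%, was 3.15% after quantile normalization, 3.47% after cyclic loess, 3.05% with no filter and 7.34% among genes within the range of the scaRNA means. The share at least 2-fold higher with G536S than with wild type, 0.268%, was 0.0893% among protein-coding genes. For wild type minus empty vector, the share 1.5-fold higher was 3.10% after quantile normalization. The mean of probe sets left the scaRNA values as they were because each has 1 probe set, and the floor (0.86) because all their values lie above it. No paired analysis was possible because each group has 1 array. The number of arrays, 1 per group, limits every value.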
